A study of Mus musculus with 6 samples.

Results

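The 9 chemokine receptor genes Ccr1, Ccr2, Ccr3, Ccrl2, Cxcr2, Cxcr3, Cxcr4, Cx3cr1 and Xcr1 were taken by name from a table of read counts for 54532 annotated mouse genes. Each name matched 1 row. The RNA-seq libraries came from cultured mouse dendritic cells, 3 control libraries and 3 libraries treated with DB2313, a small molecule that the study used as an inhibitor of the transcription factor Spi1 (PU.1). The labels gave no strain, age, dose or duration, and they did not say what the control cells received. The control columns of the table were named for bone marrow-derived dendritic cells and the treated columns for Spi1, and every direction given here rests on reading the latter as the DB2313 libraries. The study's own text described macrophages. Nothing stated that replicates came from separate animals or cultures, so the p-values measure the spread between these libraries, which may be technical.

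Chemokine receptors are G protein-coupled receptors of the cell surface. They bind small secreted chemokines, signal through inhibitory G proteins, and direct cells along chemokine gradients. In myeloid cells, Ccr2 brings monocytes out of the bone marrow, Cxcr4 holds cells there, and Cx3cr1 marks monocyte-derived and resident macrophages. Ccrl2 is atypical, since it binds the chemoattractant chemerin and presents it to other cells without classical signalling. PU.1 binds DNA at purine-rich sequences around the core GGAA, and DB2313 occupies the minor groove beside such sites.

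With DB2313, Cx3cr1 fell to 0.416 of its control level (95% interval 0.318 to 0.546). No other member passed the test. The test was edgeR's quasi-likelihood test with Benjamini-Hochberg adjustment over all 14174 genes tested, and all adjusted p-values below come from it. All 9 members passed the filter on low counts. Of these 9, 0 were called higher and 1 was called lower at an adjusted p under 0.05, that is 11.1% of the members. Over all genes tested, 10.6% were called, 4.66% higher and 5.94% lower, so the share of members called was close to the background. Only Cx3cr1 had an unadjusted p under 0.05 among the members. The median log2 fold change of the members was -0.016, against 0.000822 over all genes tested. The groups did not overlap for 2 of the 9 members, Cx3cr1 and Cxcr3. Among all genes tested, 27.4% had groups that did not overlap, so the share of members was not above the background.

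Total counts per library ranged from 16146743 to 19764677. Replicates of a group differed by more than counting noise, with a chi-square per degree of freedom of 5.03 to 5.58 between control libraries and of 7.96 to 19.4 between DB2313 libraries. The widest difference was that between DB2313 replicates 1 and 3. Of the 14 dendritic cell markers other than those of the cDC1 subset (cross-presenting dendritic cells), 13 were tested, 2 rose and 3 fell. That is 38.5% called, against 10.6% of all genes tested. Cd209a had 0 to 4 counts. Named after their values were seen, the 2 that rose were Clec10a, from 19.9 ± 1.15 to 57.7 ± 2.72 CPM (SD, n = 3 each, edgeR adjusted p 1.23e-07), and Mgl2, from 113 ± 6.09 to 215 ± 27.9 CPM (edgeR adjusted p 1.37e-05), both C-type lectins. The 3 that fell were Itgax (CD11c), from 172 ± 4.26 to 116 ± 12.6 CPM (edgeR adjusted p 0.000322), Irf4 (log2 fold change -0.43, edgeR adjusted p 0.0018) and Cacnb3 (log2 fold change -0.35, edgeR adjusted p 0.00222). The summed level of the 14 markers was 16034 to 16776 CPM in control and 13614 to 16237 CPM with DB2313. Macrophage and monocyte markers were also present, with all 14 above 1 CPM in control, 1 higher and 4 lower with DB2313 (35.7% called). The highest in control were Cd74 (6557 CPM), Ccl22 (3912 CPM) and H2-Aa (1790.3 CPM) of the former list and Lyz2 (8751 CPM), Chil3 (3746 CPM) and Csf1r (689 CPM) of the latter. CPM is the read count scaled to the library size after TMM scaling. The part of a change in cell makeup in the results below was not tested.

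The sequences near the gene starts are shown first, because the study used DB2313 as an inhibitor of PU.1, a factor that binds DNA. RefSeq (GRCm38.p6) gave a window from 250 bases before to 50 bases after the gene start for all 9 members, with 3 windows for Ccrl2. The motif GAGGAA, a PU.1 core, was searched on both strands. It was found in 4 of 9 members (44.4%), against 31.3% of all 27025 genes with such a window. The longer form AGGAAGT, which shares the letters AGGAA with it, was found in 1 member, Cxcr3, and in 10.7% of all genes. The motif GAAANNGAA of interferon-stimulated response elements was found in 1 member, Ccr2, and in 9.8% of all genes. A match describes letters in a window and is not a binding site. The 5 matches to GAGGAA are given 5′ to 3′ on the strand that reads GAGGAA, which is in capitals, with 8 bases on each side:
Ccr1, chr9:123968808-123968829, minus strand: atgattttGAGGAAcaggatat
Ccr3, chr9:124021782-124021803, plus strand: ttccttaaGAGGAAattcccac
Cxcr2, chr1:74153905-74153926, minus strand: gtcctataGAGGAAtggctagg
Cxcr2, chr1:74153992-74154013, minus strand: gccgtgatGAGGAAactactga
Cxcr3, chrX:101734148-101734169, plus strand: agtgaacaGAGGAAgtgaagat

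The match of Cxcr3 began at position -14 and those of Ccr1 and Ccr3 at -129 and -181, where 0 is the first transcribed base in RefSeq and the position is that of the leftmost base along the gene. In Cxcr3 this match and 1 of the 2 matches to AGGAAGT overlapped. The window of Cx3cr1, the member that changed, held neither GAGGAA nor AGGAAGT, and not the interferon motif. The bare core GGAA was not searched for, and it does occur in this window and in that of Cxcr3. The Cx3cr1 window was set by a RefSeq start that lies inside the deposited gene span. The deposited start of this gene, at 120069879 on the minus strand, lies outside the window, and the sequence there was not searched. The window of Cx3cr1 is printed beside that of Cxcr3, the member with the highest log2 fold change, so that both can be compared. Both run along the sense strand of the gene, with GAGGAA of either strand in capitals:
Cx3cr1, chr9:120068247-120068546, minus strand: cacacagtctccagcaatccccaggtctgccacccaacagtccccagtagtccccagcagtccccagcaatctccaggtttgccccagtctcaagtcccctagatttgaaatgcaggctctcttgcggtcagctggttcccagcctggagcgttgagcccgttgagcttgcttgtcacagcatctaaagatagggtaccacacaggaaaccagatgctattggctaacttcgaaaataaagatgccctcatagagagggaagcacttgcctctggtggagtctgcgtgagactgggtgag
Cxcr3, chrX:101734098-101734397, minus strand: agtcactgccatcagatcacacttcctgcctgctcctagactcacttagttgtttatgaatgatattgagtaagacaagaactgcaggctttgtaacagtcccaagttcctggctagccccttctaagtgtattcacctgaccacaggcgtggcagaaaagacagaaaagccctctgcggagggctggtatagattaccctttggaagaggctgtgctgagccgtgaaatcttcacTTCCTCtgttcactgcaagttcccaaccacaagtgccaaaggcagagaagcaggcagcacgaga

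Cx3cr1 encodes the receptor for fractalkine (Cx3cl1), the chemokine that also exists as a membrane-bound adhesion molecule. It had 175, 180 and 175 counts in control replicates 1 to 3 and 74, 111 and 60 counts in DB2313 replicates 1 to 3. In CPM these were 10.8, 11.3 and 11.0 in control and 4.49, 5.57 and 3.61 with DB2313. Every DB2313 library was below every control library. The mean fell from 11.0 ± 0.267 to 4.56 ± 0.982 CPM (SD, n = 3 each). The log2 fold change was -1.26 ± 0.18 (SE, 95% interval -1.65 to -0.87) and passed at an edgeR adjusted p of 0.000403. Since these are bulk libraries, fewer cells with Cx3cr1 and less Cx3cr1 RNA per cell cannot be told apart. The spread of Cx3cr1 between libraries was 2.43% of the mean in control and 21.6% with DB2313. The control value is below what counting noise alone would give on 175 to 180 counts. The difference between both values is therefore not read as a rise in spread.

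The call of Cx3cr1 held in all 18 alternatives, with log2 fold changes from -1.44 to -1.12. The gene (ENSMUSG00000052336) spans 168.26 kb on the minus strand of chromosome 9 (119901616 to 120069879, GRCm38), and 9 other annotated genes overlap this span. The RefSeq start used for its window lies inside it. Its exons shared 78 bp with 1 of them, the antisense gene Gm33858, which had 0 to 3 counts, and none with the other 8. Its coding sequence lies in 1 exon. Its transcripts had no stretch of 100 bp at 95% identity or more in another gene.

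As a description that does not depend on scaling, the log2 ratio of Cx3cr1 counts to those of each other member was taken within each library. The mean ratio was lower with DB2313 for all 8 partners, by 0.87 for Ccr3 and by 1.11 to 1.68 log2 units for the others. All 8 ratios share the Cx3cr1 counts and restate its lower level, so no test of them is given. The groups overlapped only in the ratio to Ccr3, where DB2313 replicate 1, with 20 Ccr3 counts, had the highest ratio of all 6 libraries.

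**Figure D1:**
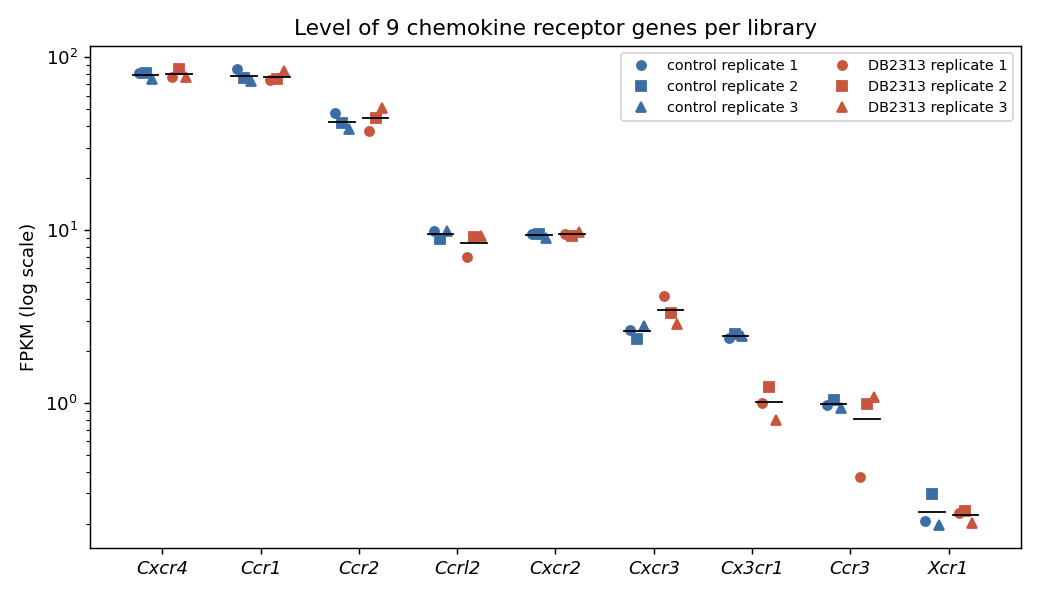
FPKM (CPM divided by the deposited gene length in kb, log axis) of the 9 receptor genes in each library, ordered by the control mean. Points are libraries, black lines are group means. The 3 DB2313 values of Cx3cr1 lie below its 3 control values, while the groups of Ccr1, Ccr2, Ccr3, Ccrl2, Cxcr2, Cxcr4 and Xcr1 overlap.

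Levels were compared between genes only per length, in FPKM. In control, Cxcr4 (78.7 ± 3.64 FPKM) and Ccr1 (78.1 ± 6.49 FPKM) were the highest and their libraries overlapped. Ccr2 followed at 42.4 ± 4.70 FPKM (SD, n = 3), apart from both neighbours. Ccrl2 (9.56 ± 0.566 FPKM) and Cxcr2 (9.33 ± 0.281 FPKM) overlapped with each other and lay 4.44-fold below Ccr2. Cxcr3 (2.59 ± 0.220 FPKM) and Cx3cr1 (2.44 ± 0.0593 FPKM) formed the next pair, again with overlapping libraries. Ccr3 (0.984 ± 0.0483 FPKM) and Xcr1 (0.233 ± 0.0543 FPKM) were the lowest and did not overlap.

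With DB2313 the order of means was kept except that Cxcr2 (9.53 ± 0.231 FPKM) stood above Ccrl2 (8.47 ± 1.24 FPKM), with libraries that no longer overlapped. Cxcr3 (3.44 ± 0.640 FPKM) and Cx3cr1 (1.01 ± 0.218 FPKM) came apart, while Cx3cr1 now overlapped with Ccr3 (0.812 ± 0.385 FPKM). Per length, the mean of Cxcr3 was 1.06 times that of Cx3cr1 in control and 3.40 times with DB2313. The ratio of their counts, not corrected for length, was 0.361 to 0.440 in control libraries and 1.03 to 1.59 in DB2313 libraries. It compares the groups and not the levels of both genes. The summed FPKM of the 9 receptors was 211 to 239 in control and 211 to 234 with DB2313. Of this sum, Cxcr4, Ccr1 and Ccr2 together held most, with Cxcr4 at 33.7% to 36.2% in control and 32.6% to 37.4% with DB2313. Cx3cr1 held 0.999% to 1.16% in control and 0.341% to 0.539% with DB2313.

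Ccr1 and Ccr2 are receptors for inflammatory CC chemokines on monocytes and their descendants. Ccr1 was at 242, 216 and 206 CPM in control and at 209, 212 and 235 CPM with DB2313. Ccr2 was at 321, 281 and 258 CPM in control and at 254, 301 and 345 CPM with DB2313. For both genes the groups overlapped throughout, and the DB2313 libraries of Ccr2 spanned a wider range than its controls. For Ccr1 the log2 fold change was -0.016 ± 0.078 (SE, 95% interval -0.18 to 0.15, edgeR adjusted p 0.936). That of Ccr2 was 0.063 ± 0.10 (95% interval -0.15 to 0.28, edgeR adjusted p 0.774). As a fold, the interval of Ccr1 was 0.882 to 1.11 and that of Ccr2 was 0.898 to 1.22. Changes beyond these bounds would lie outside the 95% interval, and smaller ones in either direction lie within it. These bounds are not the detection limit of the adjusted test, which is stricter, so changes somewhat larger could also have gone uncalled.

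Cxcr4 is the receptor for Cxcl12, which retains cells in the bone marrow. It was at 145.8, 146 and 135 CPM in control and at 139.8, 155 and 138 CPM with DB2313. The highest and lowest of the 6 values were thus in opposite groups, with DB2313 replicate 2 highest and control replicate 3 lowest, and the others lay between them. Its log2 fold change was 0.023 ± 0.075 (SE, 95% interval -0.14 to 0.18, edgeR adjusted p 0.900). Its sign turned with an offset for gene length, and the value then was -0.023.

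Cxcr2 is the receptor for the neutrophil-attracting CXC chemokines, and neutrophils carry much of it. It was at 29.1, 28.8 and 27.5 CPM in control and at 29.1, 28.3 and 29.7 CPM with DB2313, so the groups overlapped within a narrow band. Cxcr2 had a log2 fold change of 0.030 ± 0.093 (SE, 95% interval -0.17 to 0.23, edgeR adjusted p 0.892). Of the 14 neutrophil markers, 4 rose and 1 fell past the threshold over all genes (35.7% called, against 10.6% of all genes tested). Their summed level was 5496 to 6063 CPM in control and 5904 to 7368 CPM with DB2313. Their median log2 fold change was 0.20. The part of these cells in the Cxcr2 value was not tested. The Cxcr2 transcripts also held a stretch of up to 211 bp at 95% identity or more with transcripts of 108 other genes, so some of its reads could be shared.

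Ccrl2 was at 25.5, 23.1 and 25.8 CPM in control and at 18.3, 23.8 and 23.9 CPM with DB2313. DB2313 replicate 1 was the lowest library and the other two lay within the control range. On the log2 scale the fold change was -0.17 ± 0.12 (SE, 95% interval -0.43 to 0.082, edgeR adjusted p 0.429), and without DB2313 replicate 1 it was -0.056. Rarres2, the gene of the Ccrl2 ligand chemerin, had 0 to 3 counts per library and was not tested.

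Cxcr3 is the receptor for the interferon-induced chemokines Cxcl9, Cxcl10 and Cxcl11 and is best known on T and NK cells. It had 74, 65 and 77 counts in control and 118, 114 and 83 counts with DB2313. In CPM these were 4.55, 4.08 and 4.83 in control and 7.16, 5.72 and 4.99 with DB2313. The groups did not overlap, but DB2313 replicate 3 lay close to control replicate 3. Its log2 fold change was 0.41 ± 0.21 (SE, 95% interval -0.039 to 0.85), and the edgeR adjusted p was 0.262, so Cxcr3 did not pass. It did not pass in any of the 18 alternatives, with adjusted p from 0.131 to 0.586. Of the 14 T cell and NK cell markers, 13 were tested and none passed, with a summed level of 334 to 403 CPM in control and 307 to 438 CPM with DB2313. DB2313 replicate 1 had the highest value of both Cxcr3 and this sum. DB2313 replicate 3 had the lowest sum of all libraries, 307 CPM, with Cxcr3 above every control library. Control replicate 3 had a sum of 403 CPM with Cxcr3 at 4.83 CPM. The part of these cells in the Cxcr3 value was not tested.

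Ccr3 is the eotaxin receptor, typical of eosinophils and also found on basophils and mast cells. It had 52, 54 and 49 counts in control and 20, 64 and 59 counts with DB2313. DB2313 replicate 1 stood apart at 1.21 CPM, whereas the other five libraries lay between 3.07 and 3.55 CPM. With all libraries the log2 fold change was -0.27 ± 0.34 (SE, 95% interval -0.995 to 0.46, edgeR adjusted p 0.703), and without DB2313 replicate 1 it turned to 0.068. The 7 eosinophil markers summed to 250.01 to 338 CPM in control and to 219 to 314 CPM with DB2313, with DB2313 replicate 1 lowest. Of these 7, 1 was lower past the threshold (14.3% called, against 10.6% of all genes tested). The mast cell and basophil markers summed to 2521 to 2721 CPM in control and to 2569.9 to 3079 CPM with DB2313, with DB2313 replicate 1 highest. Of these 11 markers, 9 were tested, 2 were higher and 0 were lower past the threshold (22.2% called). The part of either cell type in the Ccr3 value was not tested.

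Xcr1 is the receptor for Xcl1 and marks cDC1 cells. It had 15, 21 and 14 counts in control and 17, 21 and 15 counts with DB2313, near the lower end of what the filter admits. The values were 0.922, 1.32 and 0.878 CPM in control and 1.03, 1.05 and 0.901 CPM with DB2313, so the groups overlapped. The log2 fold change was -0.059 ± 0.41 (SE, 95% interval -0.94 to 0.82, edgeR adjusted p 0.956), an interval that spans a change of 0.522-fold to 1.76-fold. Xcr1 transcripts hold up to 142 bp at 95% identity or more with 21 other genes. Of the 11 other cDC1 markers, 9 were tested, 1 rose and 1 fell (22.2% called, against 10.6% of all genes tested). Clec9a, a receptor for dead cells on cDC1 and named here after its values were seen, rose from 10 to 17 counts in control libraries to 42 to 72 counts with DB2313 (log2 fold change 2.12 ± 0.37, SE, edgeR adjusted p 0.0017). It shares 185 bp at full identity with Clec1b. Batf3, a transcription factor needed for cDC1 and also chosen after its values were seen, fell, with a log2 fold change of -0.57 ± 0.12 (SE, edgeR adjusted p 0.00709). The summed level of the 11 markers was 1017 to 1060 CPM in control and 938 to 976 CPM with DB2313. Irf8 (273 CPM), Cd24a (236 CPM) and Naaa (234 CPM) were the highest in control and together held most of this sum. Clec9a was at 0.769 CPM in control, so the sum says little about it.

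**Figure D2:**
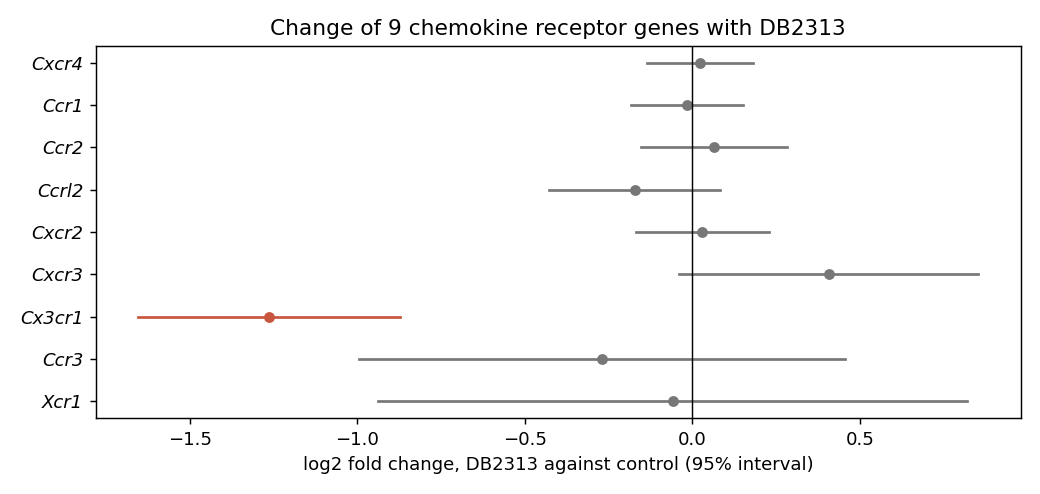
Log2 fold change (DB2313 against control) with its 95% interval for the 9 receptor genes, ordered by control level. Cx3cr1, the only one with an edgeR adjusted p under 0.05, is in red. The intervals of Ccr3 and Xcr1 are several times as wide as those of Cxcr4 and Ccr1.

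Of the 9 members, 6 lie on chromosome 9 (coordinates on GRCm38). Ccr1 (ENSMUSG00000025804) lies at chr9:123962124-123968692, Ccr2 (ENSMUSG00000049103) at chr9:124101950-124113557, Ccr3 (ENSMUSG00000035448) at chr9:124021972-124031689, Ccrl2 (ENSMUSG00000043953) at chr9:111054486-111057519 and Xcr1 (ENSMUSG00000060509) at chr9:123852315-123862029. Cxcr2 (ENSMUSG00000026180) lies at chr1:74153989-74161246, Cxcr4 (ENSMUSG00000045382) at chr1:128588199-128592293 and Cxcr3 (ENSMUSG00000050232) at chrX:101731535-101734269. Apart from Cx3cr1, no member overlaps another annotated gene. Xcr1, Ccr1, Ccr3 and Ccr2 lie within 261.2 kb.

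The ligand genes were described next, to show which signals the same cultures transcribed. Of 36 chemokine and related ligand genes in the list, 26 were tested, 2 were higher and 4 were lower (23.1% called, against the background of 10.6%), with a median log2 fold change of -0.059. For Ccr1, the ligand gene Ccl9 fell from 662 ± 8.08 to 322 ± 44.8 CPM, with 10521 to 10702 counts in control and 4846 to 6150 with DB2313. Its log2 fold change was -1.04 ± 0.086 (SE, edgeR adjusted p 2.57e-06). Ccl6, a second Ccr1 ligand of the same group of genes, fell by 0.22 ± 0.065 on the log2 scale (SE, edgeR adjusted p 0.0419). The call of Ccl9 held in all 18 alternatives and that of Ccl6 in 12, with an edgeR adjusted p of 0.0969 to 0.216 when control replicate 1, 2 or 3 or DB2313 replicate 2 was left out. Transcripts of Ccl9 share up to 163 bp at 95% identity or more with those of 68 other genes.

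For Ccr2, the ligand gene Ccl12 rose from 0.559 ± 0.263 to 1.803 ± 0.624 CPM, on 6 to 14 counts in control and 22 to 50 with DB2313. Its log2 fold change was 1.68 ± 0.46 (SE, edgeR adjusted p 0.0299). Without DB2313 replicate 2 its edgeR adjusted p was 0.207, without control replicate 2 it was 0.140 and without control replicate 3 it was 0.134. The other Ccr2 ligand genes listed, Ccl2 and Ccl7, had more counts than Ccl12 in every library. Both had a lower mean with DB2313, their groups overlapped and neither passed. Ccl2 had a log2 fold change of -0.24 ± 0.14 (SE, edgeR adjusted p 0.362). That of Ccl7 was -0.31 ± 0.22 (SE, edgeR adjusted p 0.448). For Cxcr2, the ligand gene Cxcl3 fell by 0.51 ± 0.15 on the log2 scale (SE, edgeR adjusted p 0.0425), although the groups overlapped in CPM, and it did not pass without control replicate 1, control replicate 3 or DB2313 replicate 2 (edgeR adjusted p 0.144 to 0.207). Its transcripts share 550 bp at 90.727% identity with Cxcl2.

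For Cx3cr1, the ligand gene Cx3cl1 had 2544, 2646 and 2695 counts in control and 3046, 3836 and 2842 with DB2313. In CPM it went from 164 ± 6.58 to 183 ± 11.0 (SD, n = 3 each), without overlap between the groups, but its log2 fold change of 0.16 ± 0.072 (SE) did not pass (edgeR adjusted p 0.201). For Cxcr3, Cxcl10 had a log2 fold change of 0.57 ± 0.19 (SE, edgeR adjusted p 0.0684) and Cxcl9 one of -0.56 ± 0.31 (SE, edgeR adjusted p 0.300), while Cxcl11 was not tested. For Cxcr4, Mif had a log2 fold change of 0.047 ± 0.12 (SE, edgeR adjusted p 0.865), and Cxcl12 had 0 to 4 counts. For Xcr1, Xcl1 had 66 to 109 counts and a log2 fold change of -0.0076 ± 0.24 (SE, edgeR adjusted p 0.990). For Ccr3, Ccl24 had a log2 fold change of 0.16 ± 0.099 (SE, edgeR adjusted p 0.384), and Ccl11 had 0 counts in every library.

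Of the other ligand genes, Ccl4, an inflammatory CC chemokine, rose by 0.62 ± 0.18 on the log2 scale (SE, edgeR adjusted p 0.0367), and Cxcl16, the ligand of Cxcr6, fell by 0.39 ± 0.085 (SE, edgeR adjusted p 0.00789). The Ccl4 groups overlapped in CPM, and Ccl4 did not pass without control replicate 1 or 2 or DB2313 replicate 1 or 2 (edgeR adjusted p 0.0979 to 0.165). Cxcl16 did not pass without control replicate 3 (edgeR adjusted p 0.0565) or DB2313 replicate 2 (0.0589). Cxcl16 shares 552 bp at full identity with Zmynd15. With 1 library left out, 0 to 4 ligand genes were higher and 1 to 7 were lower, and each of the 6 libraries moved at least 1 of these counts by over 1.5 times.

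**Figure D3:**
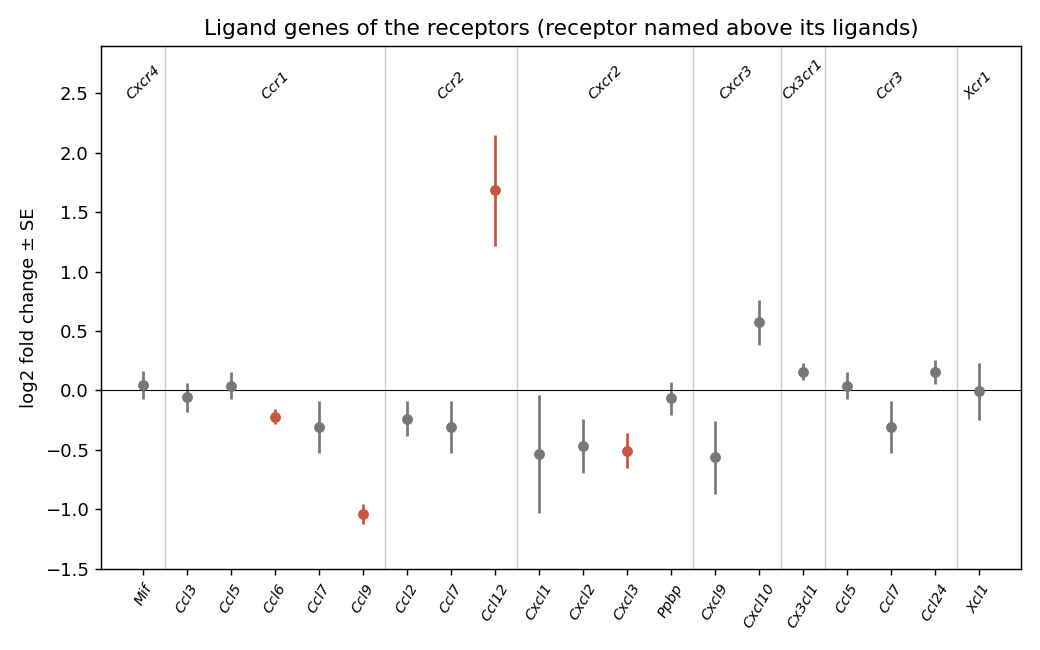
Log2 fold change ± SE (DB2313 against control) of the tested ligand genes, grouped under the receptor they bind. Genes with an edgeR adjusted p under 0.05 are in red, which are Ccl9 and Ccl6 under Ccr1, Ccl12 under Ccr2 and Cxcl3 under Cxcr2. Ccl5 and Ccl7 appear under more than one receptor.

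Among 48 genes that act downstream of chemokine receptors, 46 were tested, 4 were higher and 3 were lower (15.2% called, against 10.6% of all genes), with a median log2 fold change of -0.039. Rgs1, which switches off the G proteins of chemokine receptors, fell from 111 ± 11.0 to 41.3 ± 6.20 CPM (SD, n = 3 each), a log2 fold change of -1.43 ± 0.11 (SE, edgeR adjusted p 9.76e-07). Its counts were 1595 to 1986 in control and 602 to 794 with DB2313. Pik3r6, an adaptor of the PI3-kinase that G protein-coupled receptors activate, fell by 0.51 ± 0.078 on the log2 scale (SE, edgeR adjusted p 0.000594). Prex1, an exchange factor that activates Rac, fell by 0.47 ± 0.078 (SE, edgeR adjusted p 0.00115). All 3 calls held in all 18 alternatives. Rasgrp2, an activator of Rap GTPases, rose by 0.38 ± 0.097 on the log2 scale (SE, edgeR adjusted p 0.019), and Rgs2, another regulator of G protein signalling, by 0.35 ± 0.072 (SE, edgeR adjusted p 0.00586). Elmo1 and Rac2, which act in Rac signalling, rose by 0.25 ± 0.076 and 0.23 ± 0.070 on the log2 scale (SE), with edgeR adjusted p of 0.0492 and 0.0472. The call of Elmo1 held in 12, that of Rac2 in 11 and that of Rasgrp2 in 15 of the 18 alternatives. Without control replicate 2, without control replicate 3 or without DB2313 replicate 2, none of Elmo1, Rac2 and Rasgrp2 passed (edgeR adjusted p 0.051 to 0.247), and 1 gene of the list was higher. Without DB2313 replicate 3, 5 were higher and 8 were lower. Rasgrp2 shares up to 270.0 bp at 95% identity or more with 26 other genes and Rac2 up to 124 bp with 6. Elmo1 shares 405 bp at full identity with Gm32036.

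The genes with a pattern most like that of Cx3cr1 were sought among 11156 protein-coding genes with a mean log2 CPM of at least 1, as a description. The measure was the root-mean-square difference between log2 CPM values centred over the 6 libraries. The closest were Cdk5r1 (0.148 log2 units), St8sia6 (0.151) and Lgi4 (0.170). Their levels in control were 8.58, 7.73 and 6.72 CPM, and with DB2313 they were 3.79, 2.80 and 2.65 CPM. Lgi4 shares 1848 bp at full identity with Fxyd3, so its reads could be divided between both.

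**Figure D4:**
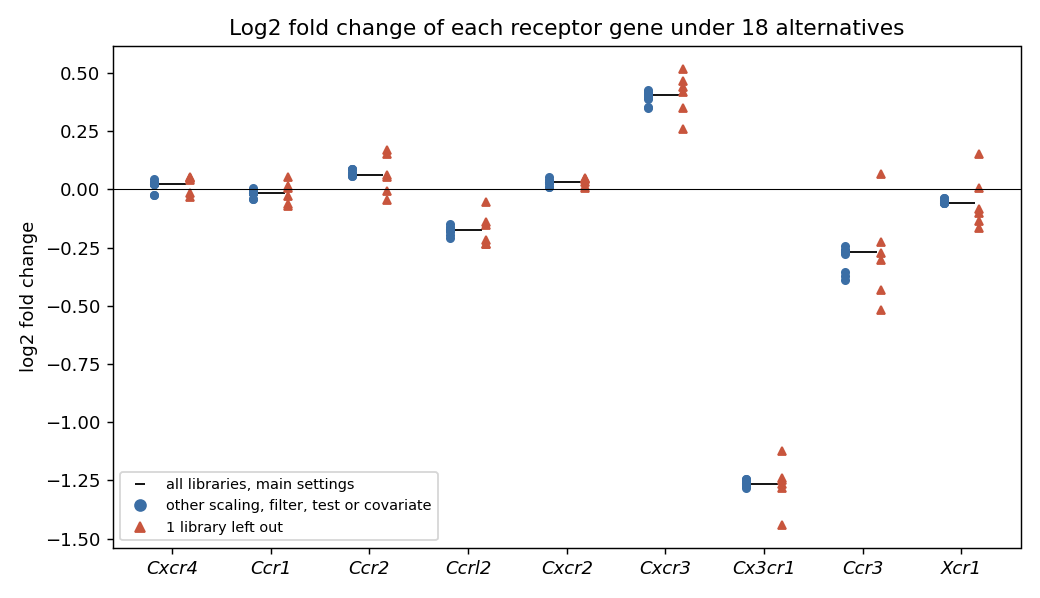
Log2 fold change of the 9 receptor genes with all libraries and the main settings (black bars), under 12 other settings of scaling, filter, test or covariate (blue) and with 1 of the 6 libraries left out (red). Cx3cr1 stays between -1.44 and -1.12, whereas the values of Ccr1, Ccr2, Ccr3, Cxcr4 and Xcr1 lie on both sides of 0.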

How the data were processed

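Read counts of 6 libraries were analysed, 3 control and 3 DB2313, grouped by the treatment in the labels. The authors deposited a table of unnormalized read counts for each gene and the gene length in bp. Per the submitters' processing notes, CASAVA 1.8, HISAT2 2.0.5 and featureCounts 1.5.0-p3 were used, whereas the methods of the study named LifeScope. The genome build and strand setting are not given in the sources used here. The deposited start and end matched GENCODE M21 for 98.33% of shared genes, so coordinates are given as GRCm38.

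The counts were tested with edgeR 4.0.16 in R 4.3.3 (quasi-likelihood test, TMM scaling, filterByExpr with a minimum count of 10, group as the only term, prior count of 0.125, Benjamini-Hochberg adjustment over all genes tested, threshold of 0.05). The standard error was the absolute log2 fold change divided by the square root of F. The study named DESeq2, which was run as an alternative (1.42.0), as was limma-voom (3.58.1). The scripts were tested on simulated data. The sources state no molecular identifiers, so reads may not be independent molecules. Transcript copies were searched with blastn 2.17.0 (megablast) with limits of 90% identity and 100 bp. Sequences are from RefSeq GRCm38.p6.

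The members and the lists of genes were chosen with earlier results of these data known. By rule, the text named all members and up to 8 genes per list with an adjusted p under 0.05, by size of change. The rule also covered the 3 genes most like a called member and the 3 markers with the highest control CPM in each marker list. The latter are given here for dendritic cell, cDC1 and macrophage markers. A further list of receptor genes is not reported here. Ligands not called and the named markers were picked with their values in view. Scaling was varied (DESeq2 size factors, library totals), as were the filter (none, a mean count of 10 or more, coding genes alone), the tool (robust edgeR, limma-voom, DESeq2), the covariates (a lowess offset for gene length with a span of 0.3, a replicate block, both together) and the prior count (2), besides leaving out each library in turn. The labels gave no batch. B cell markers summed to 2.89 to 4.06 CPM in control and to 5.35 to 6.80 CPM with DB2313. Only 1 of these 6 markers was tested, and it did not pass. Plasmacytoid dendritic cell markers summed to 108 to 126 CPM in control and to 98.1 to 107 CPM with DB2313. Only 3 of these 7 were tested, and none passed. The groups did not overlap in either sum, and no test of the sums was made.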

Additional observations from a re-analysis of the deposited data

How the results depend on the processing

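Cx3cr1 was lower and past the threshold in all 18 alternatives, and its edgeR, limma-voom or DESeq2 adjusted p was at most 0.00472. No other member passed in any of the 18. Ccrl2, Cxcr2 and Cxcr3 kept their sign in all 18. The log2 fold change turned sign without passing for Ccr1 with library totals (0.0076) and for Cxcr4 with the gene length offset (-0.023) and the same offset plus the replicate block (-0.024). With single libraries left out, Ccr1 ranged from -0.070 to 0.053, Ccr2 from -0.048 to 0.17, Ccr3 from -0.52 to 0.068, Cxcr4 from -0.032 to 0.054 and Xcr1 from -0.16 to 0.15. The cause was not tested. In these fits the genes called higher ranged from 328, without DB2313 replicate 2, to 1097, without DB2313 replicate 3, and those called lower from 411 to 1311 for the same libraries. Leaving out a control library gave 360.0 to 383 higher and 436 to 485 lower genes. Without DB2313 replicate 1, and under each setting that kept all libraries, the counts stayed within 1.5 times of 661 and 842. Libraries that share a number did not deviate together (correlations of 0.0035, -0.024 and -0.12), so they were not treated as pairs. A replicate block gave 502 higher and 629 lower genes, and with it Ccl6 (edgeR adjusted p 0.158), Ccl4 (0.0541), Rac2 (0.153) and Elmo1 (0.122) did not pass. Counts of 14 to 21 reads for Xcr1 and of 20 to 64 for Ccr3 limit what these libraries can show for both genes.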

Other observations

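Among the DB2313 libraries, replicate 1 had the lowest values of Ccr2 (254 CPM), Ccr3 (1.21 CPM) and Ccrl2 (18.3 CPM) and the highest of Cxcr3 (7.16 CPM). It also had the highest sums of neutrophil (7368 CPM), T cell and NK cell (438 CPM) and mast cell and basophil markers (3079 CPM). Its sum of eosinophil markers was the lowest (219 CPM). DB2313 replicate 3 had the highest values of Ccr1 (235 CPM) and Ccr2 (345 CPM), with 5904 CPM of neutrophil markers, 307 CPM of T cell and NK cell markers and 314 CPM of eosinophil markers. Its mast cell and basophil markers summed to 2569.9 CPM. Cxcr2 was at 29.1 CPM in DB2313 replicate 1 and at 29.7 CPM in DB2313 replicate 3. Cx3cr1 was at 4.49 and 3.61 CPM in these libraries, both below every control library. The sum of macrophage and monocyte markers was 13914 CPM in DB2313 replicate 1 and 13445 CPM in DB2313 replicate 2. Both lay below the 14320 to 16039 CPM of the control libraries. DB2313 replicate 3, at 14935 CPM, lay within that range. Lyz2 (8751 CPM) and Chil3 (3746 CPM) together held most of this sum in control. Neither was called (edgeR adjusted p 0.218 and 0.478), so the sum says little about the other macrophage and monocyte markers. These values were compared after they were seen and no test was made.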
